A study of Mus musculus with 12 samples.

Results

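The LIM homeobox genes described here are the 8 Lhx genes Lhx1, Lhx2, Lhx3, Lhx4, Lhx5, Lhx6, Lhx8 and Lhx9 and the 2 Islet genes Isl1 and Isl2, 10 of the 21951 protein-coding genes in the GENCODE M21 annotation of the mouse genome (build GRCm38). They were chosen by family name, and the H3K4me3 peaks within 5 kb of any of their annotated transcription start sites (TSSs) or over their gene bodies were collected. These were 72 of the 81817 peaks in 4 lists. H3K4me3, trimethylation of lysine 4 on histone H3, was profiled by CUT&Tag, in which an antibody directs a transposase to modified chromatin and the released DNA is sequenced. The tissue was dissected from wild-type C57BL/6J mouse embryos, and the 4 regions were the medial, lateral and caudal ganglionic eminences (MGE, LGE and CGE) and the cortex (CTX). The embryos were taken at E12.5, although the protocol in the labels also names E14.5 and does not give the tissue it applies to. Each region had 2 replicates of pooled embryos, held in 3 MGE, 2 LGE, 4 CGE and 3 CTX libraries, and the authors merged the replicates before peaks were called.

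LIM homeodomain proteins carry a pair of LIM zinc-binding domains, which bind other proteins, and a homeodomain, which binds DNA. They act in complexes held together by the cofactor Ldb1, and LIM-only (Lmo) proteins can occupy the same cofactor. In the embryonic forebrain Lhx2 is a selector of cortical identity, Lhx6 and Lhx8 act in neurons born in the MGE, and Isl1 acts in striatal and cholinergic neurons. H3K4me3 lies at active promoters and, together with a repressive mark, at the poised promoters of many developmental regulators, so that a peak alone does not show transcription.

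The 4 lists held between 17284 and 25339 broad peaks. They were drawn at different resolutions. MGE and CTX had narrowest peaks of 114 and 122 bp and smallest gaps between neighbouring peaks of 457 and 492 bp. LGE and CGE had narrowest peaks of 243 and 242 bp and smallest gaps of 977 and 972 bp. Covered bases, the number of bases under peaks inside a gene's TSS windows, are therefore given together with the percentile of the gene among all protein-coding genes of the same list. Genes without a peak share percentile 0. The part of these differences between the lists in the results was not tested. The label protocol states that equal numbers of nuclei from the 4 regions were pooled before the reactions, whereas each library is labelled with a single region. The region markers chosen for comparison differed between the lists. Nkx2-1, which specifies the MGE, had 3262 covered bases in MGE, 2934 in LGE and 3804 in CGE, and no peak in CTX, and the cortical gene Emx1 had 495 in MGE against 3337 in LGE, 3453 in CGE and 2969 in CTX. Neurod6, a marker of cortical neurons, was narrow in the CTX list, with 242 covered bases there against 328 in MGE, 1132 in LGE and 584 in CGE. Since each region is 1 list from merged replicates, no spread between replicates was available and no test was made between regions. The depth under each peak is unknown. The paper gives a sequencing depth per replicate, and each CGE replicate was sequenced more deeply than any MGE or LGE replicate. The part of sequencing depth in the differences between the lists was not tested. A gene without a peak is one for which none was called, and in bulk tissue fewer cells with the mark and less mark per cell cannot be told apart.

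The promoters of the family differed in CpG content. Of the 10 genes 9 had 1 or more RefSeq promoters (250 bases before to 50 bases after a start, build GRCm38.p6), 13 promoters in all, and Lhx5 had none in the table. The stretches below are the parts of 5 promoters outside the gene's annotated exons, shown because the peaks at these genes ranged from absent in CTX to alike in all lists, and 300 bases from inside Lhx6 that lay under a peak in every list. They are written in the direction of transcription, with CG dinucleotides (CpG) in capitals, at chr2:38339031-38339280 (plus strand) for Lhx2, chr2:36105409-36105658 (minus) for Lhx6, chr3:154330660-154330810 (minus) for Lhx8, chr13:116309690-116309938 (minus) for Isl1, chr9:55540899-55541147 (plus) for Isl2 and chr2:36091261-36091560 (minus) for the interior of Lhx6.
Lhx2: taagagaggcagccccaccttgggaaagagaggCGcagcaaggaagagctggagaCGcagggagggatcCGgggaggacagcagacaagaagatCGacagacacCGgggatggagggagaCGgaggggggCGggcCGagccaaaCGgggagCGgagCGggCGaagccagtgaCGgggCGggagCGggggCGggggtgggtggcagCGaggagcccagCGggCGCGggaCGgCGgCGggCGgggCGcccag
Lhx6: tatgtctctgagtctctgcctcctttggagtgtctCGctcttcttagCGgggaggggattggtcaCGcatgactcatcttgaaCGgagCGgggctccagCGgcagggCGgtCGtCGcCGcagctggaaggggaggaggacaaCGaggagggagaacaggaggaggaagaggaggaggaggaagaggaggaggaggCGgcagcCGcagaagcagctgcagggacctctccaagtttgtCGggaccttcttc
Lhx8: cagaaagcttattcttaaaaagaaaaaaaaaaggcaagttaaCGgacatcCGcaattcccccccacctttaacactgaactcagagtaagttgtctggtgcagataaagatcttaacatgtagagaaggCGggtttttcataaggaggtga
Isl1: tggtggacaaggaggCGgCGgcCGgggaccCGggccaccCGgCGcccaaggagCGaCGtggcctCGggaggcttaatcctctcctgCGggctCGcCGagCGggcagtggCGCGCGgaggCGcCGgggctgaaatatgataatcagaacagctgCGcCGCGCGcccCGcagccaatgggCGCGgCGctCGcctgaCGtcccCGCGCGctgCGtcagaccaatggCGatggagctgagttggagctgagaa
Isl2: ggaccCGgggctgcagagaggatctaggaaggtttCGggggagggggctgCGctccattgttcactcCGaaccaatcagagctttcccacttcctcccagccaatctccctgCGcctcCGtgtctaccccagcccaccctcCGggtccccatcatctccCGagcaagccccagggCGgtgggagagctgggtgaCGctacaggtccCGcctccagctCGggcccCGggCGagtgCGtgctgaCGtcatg
Lhx6 interior: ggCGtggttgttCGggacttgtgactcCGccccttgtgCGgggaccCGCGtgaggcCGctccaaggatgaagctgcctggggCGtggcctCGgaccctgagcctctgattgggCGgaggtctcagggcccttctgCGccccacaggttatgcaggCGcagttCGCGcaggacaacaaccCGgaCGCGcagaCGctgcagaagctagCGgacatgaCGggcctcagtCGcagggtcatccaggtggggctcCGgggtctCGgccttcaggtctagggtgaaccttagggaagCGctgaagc

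The printed stretches held 33 CpGs in 249 bases at Isl1, 25 in 250 at Lhx2, 16 in 249 at Isl2, 14 in 250 at Lhx6, 3 in 151 at Lhx8 and 24 in 300 in the interior of Lhx6. The printed Lhx8 stretch was under no peak in any list, as the peaks of Lhx8 lay outside it. Over whole promoters of 300 bases, the ratio of observed to expected CpGs was highest at Isl1 (1.05, above 96.5% of the 32851 RefSeq promoters) and lowest at Lhx8 (0.241, above 34.5%) and Lhx9 (0.261, above 37.2%). A ratio of at least 0.6 with at least 50% G and C, a common definition of a CpG-rich promoter, was met by 8 of the 13 promoters and by 33.5% of all promoters. The homeodomain core motif TAAT, searched as TAAT or ATTA, which covers both strands, was present in 5 of the 13 and in 58.0% of all promoters. A peak touched 10 of the 13 promoters in MGE, 10 in LGE and 11 in CGE, and 7 in CTX, against 40.5%, 41.8%, 42.4% and 40.2% of all promoters and 89.9%, 91.4%, 92.3% and 89.7% of the CpG-rich ones. The 6 promoters that no CTX peak touched were both promoters of Lhx3, all 3 of Lhx6 and that of Lhx8.

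Nearly all of the 10 genes carried a peak in every region. A peak lay within 5 kb of a TSS for 9 genes in MGE, 10 in LGE and 9 in CGE, and 9 in CTX, against 65%, 64.2%, 64.6% and 63.8% of protein-coding genes. Lhx3 lacked a peak in MGE and CGE, and Lhx8 lacked one in CTX. A peak in all 4 lists was found for 8 of the genes and for 61.3% of protein-coding genes. Lhx8 alone had a peak in every list but CTX, a pattern that 1.12% of protein-coding genes shared.

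The breadth of the peaks differed between the regions. The median over the 10 genes was 892.5 covered bases in MGE, 1870.5 in LGE and 3807 in CGE, and 421 in CTX, while the median protein-coding gene had 717, 1036, 1126 and 733. The windows were somewhat larger than usual, with a median of 16058 bp against 12812 bp over protein-coding genes. The median percentile was 59.2 in MGE, 83.1 in LGE and 97.4 in CGE, and 40.7 in CTX. Among protein-coding genes with a peak only, it was 37.3 in MGE, 73.7 in LGE and 96.1 in CGE, and 7.17 in CTX. The genes as a group thus stood highest within the CGE list and lowest within the CTX list, where their median was below that of protein-coding genes.

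At least 3000 bases were covered at 2 genes in MGE (Lhx2 and Lhx6), 3 in LGE (Lhx2, Lhx6 and Lhx9) and 6 in CGE (Lhx1, Lhx2, Lhx5, Lhx6, Lhx9 and Isl1), and 1 in CTX (Lhx2). The same breadth was reached by 1.19%, 4.02%, 5.23% and 1.44% of protein-coding genes. CGE was the most covered region for 8 of the genes and LGE for 2, Lhx3 and Lhx4. MGE and CTX were the most covered region for none. Among protein-coding genes with 1 most covered region, CGE held it for 73.5%, LGE for 16.5%, MGE for 4.93% and CTX for 5.04%, so the preference for CGE was close to that of all genes. Each other list had at least 2 times the covered bases of CTX at 4 genes, Lhx1, Lhx5, Lhx6 and Lhx8, against 3.28% of the protein-coding genes with a peak. Lhx2 alone was lower in MGE by the same rule (2.38%), and Lhx1 and Lhx5 were higher in CGE, with at least 2 times the bases of each other list (1.72%).

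**Figure D1:**
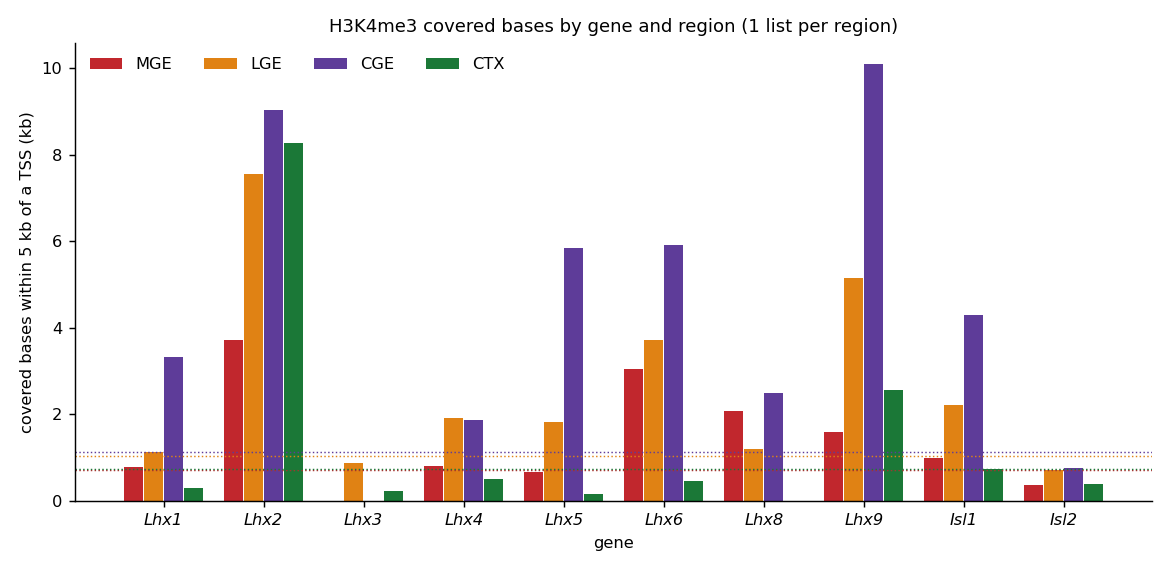
Bars give the covered bases (kb) within 5 kb of a TSS for each of the 10 genes in the MGE, LGE, CGE and CTX lists, 1 value per list and no error bar, and dotted lines give the median protein-coding gene of each list (717, 1036, 1126 and 733 bases). CGE has the tallest bar at 8 genes, Lhx2 is the only gene above 3000 bases in CTX, and Lhx8 has no CTX bar.

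**Figure D2:**
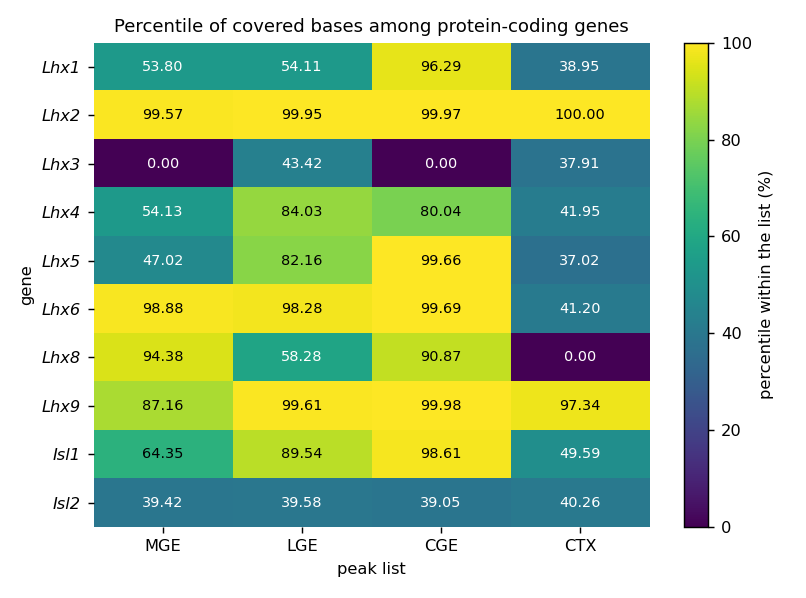
Each cell gives the percentile by covered bases of 1 gene among the 21951 protein-coding genes of the same list, with genes in rows and lists in columns. Lhx2 lies between 99.57 and 100 in every list, Lhx6 lies at 98.3 or above in the 3 eminences and at 41.2 in CTX, and Isl2 lies between 39.1 and 40.3 throughout. A gene with a peak, however narrow, ranks above all genes without one.

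Lhx6, which drives the maturation and migration of MGE-derived interneurons, was broadly marked in the 3 eminences and hardly in the cortex. It covered 3057 bases in MGE, 3711 in LGE and 5920 in CGE, and 451 in CTX, at percentiles 98.9, 98.3, 99.7 and 41.2. The gene lies on the minus strand at chr2:36081953-36105408 and has 7 annotated TSSs, 6 of them in the 2 kb next to its 5′ end. Peaks covered 5 of the 7 in MGE, 5 in LGE and 6 in CGE, and 0 in CTX.

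At the 5′ end the number of peaks differed among the eminences. In MGE it formed 3 peaks of 874, 310 and 1301 bp, in LGE 2 peaks of 1943 and 887 bp, and in CGE a single peak of 5069 bp, wider than 99.9% of the peaks in that list. The gaps between the MGE peaks, of 681 and 463 bp, were smaller than any gap in the LGE or CGE list, so their number cannot be compared with those lists. With peaks under 1 kb apart joined, Lhx6 covered 4201 bases in MGE, above the 3711 of LGE and below the 5920 of CGE. All 3 of its RefSeq promoters were touched by a peak in LGE and CGE, 2 of the 3 in MGE and none in CTX.

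The CTX peak of Lhx6 lay elsewhere. It was 451 bp wide and began 13781 bp downstream of the 5′ end, with 2646 bp between it and the nearest annotated TSS, and the other lists held a peak at the same place that measured 572 bp in MGE, 881 in LGE and 851 in CGE. The 413 bases common to all 4 lists at Lhx6, chr2:36091215-36091627, were all in this interior interval and none were at the 5′ promoters. The interval had a CpG ratio of 0.810 and 66.8% G and C, and 118 of its bases were coding exon, with 1 entire exon of 96 bases inside the sequence printed above. In CTX this peak had a fold enrichment of 6.61 over background, higher than 70.5% of the peaks in the list, while the MGE, LGE and CGE peaks at the same place stood at percentiles 47.6, 25.0 and 13.7 of their lists. With windows of 2 kb, with the 5′ end as the only TSS, or with basic transcripts only, Lhx6 had no peak in CTX and joined Lhx8 among the genes marked in every list but CTX.

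Lhx8, needed for cholinergic neurons of the basal forebrain, was the only gene of the 10 with peaks in all eminences and none in the cortex. It covered 2066 bases in MGE, 1208 in LGE and 2490 in CGE, and 0 in CTX, at percentiles 94.4, 58.3, 90.9 and 0. Relative to the other genes of each list it therefore ranked highest in MGE, although more bases were covered in CGE. The order of MGE and CGE in covered bases reversed with windows of 2 kb (2066 against 1869) and with peaks under 1 kb apart joined (2835 against 2490). The gene lies on the minus strand at chr3:154306294-154330659. Its 5′-most TSS was under no peak in any list, and the peaks began 34 bp downstream of it in MGE, 395 bp in LGE and 128 bp in CGE. A further peak lay around the TSSs 2025 and 2493 bp downstream, covering both in MGE and only the latter in LGE and CGE. CGE alone had a peak upstream, 621 bp wide and at least 2942 bp from the gene. The noncoding gene AI606473, which starts 162 bp upstream on the opposite strand, had neither of its starts under a peak. No CTX peak was found at Lhx8 under any of 10 other settings of the windows and peaks.

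Isl1, a regulator of striatal, cholinergic and many motor neurons, was marked at its 5′ end in every region, with additional peaks in LGE and CGE. It covered 987 bases in MGE, 2223 in LGE and 4284 in CGE, and 725 in CTX, at percentiles 64.4, 89.5, 98.6 and 49.6. The 5′ peak was 987 bp wide in MGE, 1789 in LGE and 1980 in CGE, and 725 in CTX, and 556 bases were common to all 4 lists. The 5′ peaks of LGE and CGE were of similar width, and the further bases of CGE lay in the gene body. LGE had a 434-bp peak that began 4241 bp downstream, and CGE had peaks of 1822 and 482 bp that each covered a further TSS. All 5 TSSs of Isl1 (minus strand, chr13:116298281-116309689) were thus under a peak in CGE, against 3 in each other list. The CGE peak at the 5′ end had a −log10 q of 52.4, while the CGE peaks in the body had 6.75 and 2.49. These body peaks stood at fold percentiles 0.625 and 0.682 of the CGE list. The 434-bp LGE peak had a −log10 q of 1.79 and a fold percentile of 0.336. It did not remain at a −log10 q of at least 2, where Isl1 covered 1789 bases in LGE, at percentile 81.2.

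**Figure D3:**
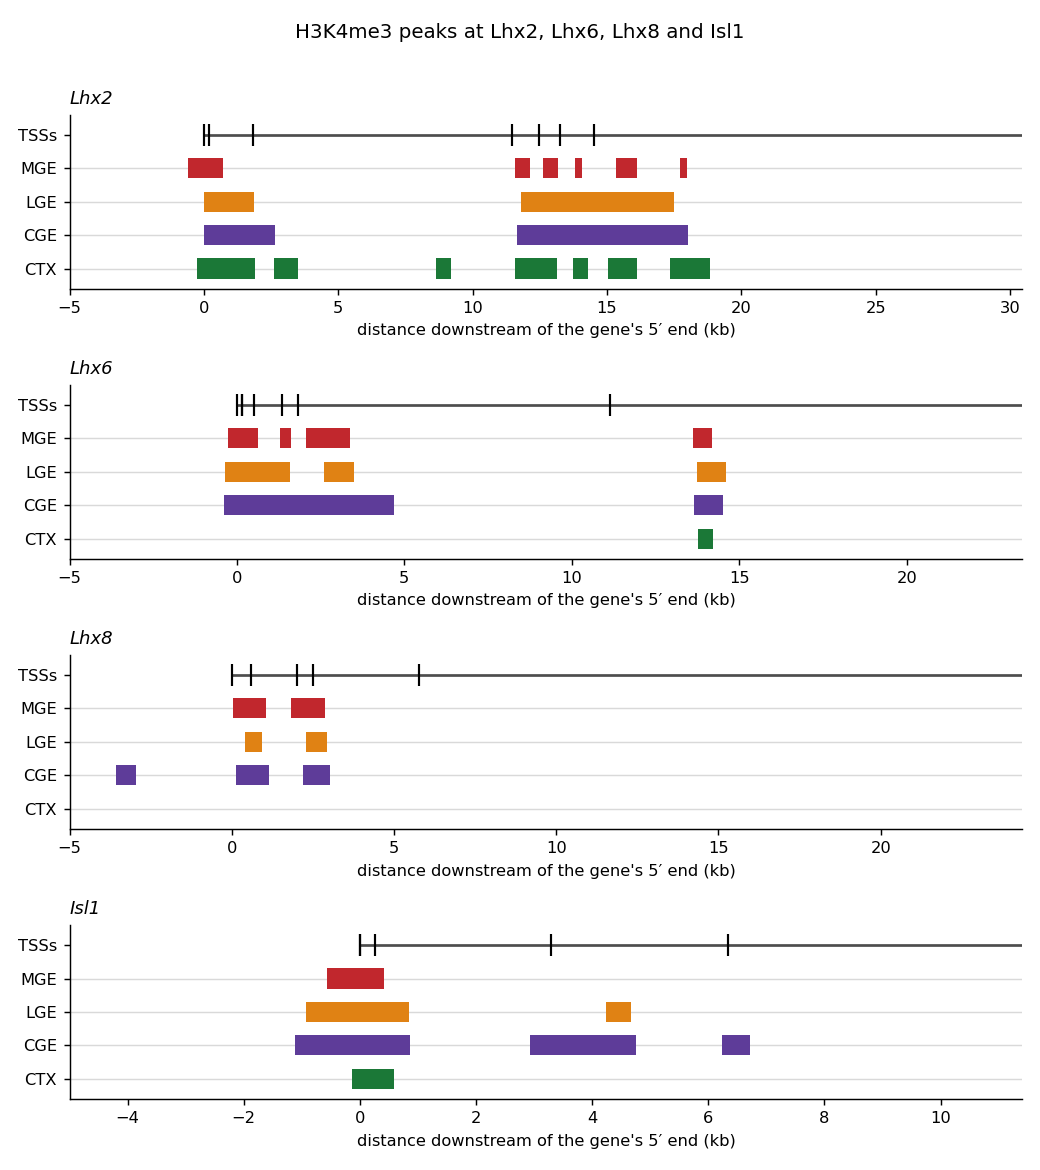
Coloured bars are the H3K4me3 peaks of each list at Lhx2, Lhx6, Lhx8 and Isl1, drawn to scale against the distance downstream of the gene's 5′ end (kb), with the gene and its annotated TSSs (ticks) on top. The only CTX peak of Lhx6 begins 13781 bp into the gene, Lhx8 has no CTX peak, and the inner domain of Lhx2 is 1 peak in LGE and CGE but 5 in MGE and 4 in CTX.

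Lhx2, which maintains cortical identity and restrains the hem, was among the most covered genes of every list. It covered 3718 bases in MGE, 7555 in LGE and 9024 in CGE, and 8277 in CTX. In CTX no protein-coding gene was covered more, and in MGE, LGE and CGE 93, 10 and 6 genes were. Its window of 24522 bp, around 7 TSSs of a gene on the plus strand at chr2:38339281-38369733, was large. With the 5′ end as the only TSS it covered 1298 bases in MGE, 1866 in LGE and 2639 in CGE, and 3056 in CTX, at percentiles 82.9, 87.5, 96.0 and 99.5, so that it ranked highest in CTX by either window.

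The mark at Lhx2 lay in 2 domains. The 5′ domain was a single peak in the eminences, of 1298 bp in MGE, 1866 in LGE and 2639 in CGE, and 2 peaks of 2155 and 901 bp in CTX. The inner domain, between 11568 and 18835 bp downstream, was 1 peak of 5689 bp in LGE and 1 of 6385 bp in CGE, each wider than 99.97% of its list. Within MGE the inner domain was 5 peaks with 2420 bases in all, and in CTX 4 peaks. Of the gaps in the inner domain, 463 and 633 bp in MGE and 603 and 761 bp in CTX were below the smallest gap of the LGE and CGE lists. With peaks under 1 kb apart joined CTX covered 10322 bases, more than CGE. The 5′ domain of MGE extended upstream of the gene, starting 582 bp before the 5′ end, while those of LGE and CGE started at the 5′ end itself and that of CTX 239 bp before it. The upstream promoter sequence printed above was under the peak over its whole length of 250 bases in MGE and over 239 bases in CTX, but over 1 base in LGE and in CGE. The MGE peak was weak, with a −log10 q of 1.61, at percentile 19.8 of its list. The 5′ peaks of LGE and CGE stood at 42.8 and 40.9, and the CTX peak over this sequence at 55.3. At a −log10 q of at least 2 or with equal list sizes the MGE peak was absent, and Lhx2 covered 2156 bases in MGE.

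Of the 10 genes, Lhx2 had the most bases that only the CTX list marked. They numbered 2219 at Lhx2, 217 at Lhx3 and 32 at Lhx9, and the other 7 genes had none. A 546-bp CTX peak, 8635 bp downstream, covered the start of the antisense transcript Gm27197, which was under no peak in the other lists. The lower value in MGE was near the limit of the rule, with 3718 bases against 7555 in LGE, and it was no longer called with windows of 2 kb, the 5′ end only, basic transcripts only, or peaks under 1 kb apart joined, which gave MGE 4814 bases. The cortical genes Emx1, Emx2 and Pax6 had their lowest values in MGE as well, with 495, 1359 and 1062 covered bases, whereas the remaining cortical marker, Neurod6, had its lowest value in CTX (242 against 328 in MGE).

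Lhx9, close in sequence to Lhx2 and expressed in the diencephalon and at the borders of the pallium, was broad in CGE and LGE. It covered 1594 bases in MGE, 5158 in LGE and 10083 in CGE, and 2566 in CTX, at percentiles 87.2, 99.6, 99.98 and 97.3. Only 4 protein-coding genes of the CGE list were covered more, in a window of 24919 bp that was the largest of the 10. With the 5′ end as the only TSS Lhx9 covered 399 bases in MGE, 2825 in LGE and 3397 in CGE, and 875 in CTX, at percentiles 42.9, 97.7, 98.6 and 60.2. The gene (minus strand, chr1:138825186-138848577) had 1 domain at its 5′ end and 1 around the TSSs 6120 to 6148 bp downstream. The 5′ peak was 399 bp wide in MGE, 2825 in LGE and 3346 in CGE, and 792 in CTX. In MGE it ended 53 bp before the 5′ end and covered no TSS. The inner domain was a 6737-bp peak in CGE, a 2333-bp peak in LGE, a 1195-bp peak in MGE and 4 peaks with 1774 bases in CTX. The LGE peak lay downstream of the inner TSSs and covered none of them. Of the bases marked at Lhx9, 3819 were in the CGE list only and 863 were in all 4.

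Lhx1 and Lhx5, a closely related pair that act in Cajal-Retzius cells and in the diencephalon, shared a profile with a wide domain in CGE and little in CTX. Lhx1 covered 792 bases in MGE, 1124 in LGE and 3330 in CGE, and 291 in CTX, at percentiles 53.8, 54.1, 96.3 and 39.0. Lhx5 covered 654 bases in MGE, 1832 in LGE and 5839 in CGE, and 159 in CTX, at percentiles 47.0, 82.2, 99.7 and 37.0. Both were thus at least 2 times as covered in CGE as in any other list and were least covered in CTX. At Lhx1 (minus strand, chr11:84518284-84525535) a peak covered the 5′ TSS in all 4 lists and, with it, the starts of the divergent noncoding gene Lhx1os 125 to 149 bp upstream. That peak was 2626 bp wide in CGE and 291 bp in CTX, and the 3 internal TSSs were under no peak anywhere. CGE also had a weak peak of 704 bp that began 4363 bp downstream, with a −log10 q of 1.68. At a −log10 q of at least 2 or with equal list sizes, Lhx1 covered 2626 bases in CGE, below the limit of 3000.

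At Lhx5 (plus strand, chr5:120431699-120441223), which has 1 TSS, the CGE list held peaks of 2994 and 3266 bp, and the latter ran 421 bases beyond the window. These were the only bases under a peak in the body of any of the 10 genes outside the TSS windows. The CTX peak of Lhx5 was 159 bp wide and lay 611 bp downstream of the TSS, so that neither this TSS nor that of the antisense transcript Gm27199 was covered in CTX, while both were in the other 3 lists. No base of Lhx5 was under a peak in all 4 lists. The folds were low, as the CGE peaks of Lhx5 were 2.39 and 2.02 over background and stood at fold percentiles 2.06 and 0.806 of their list. Without peaks under 250 bp Lhx5 had no CTX peak. With windows of 10 kb Lhx1 was no longer lower in CTX, and with equal list sizes Lhx5 was not. With windows of 2 kb Lhx5 was not called higher in CGE, as it covered 2994 bases there against 1832 in LGE.

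Markers of the neighbouring diencephalon are given beside these genes. Of the 6 markers chosen for it, 6 had a peak in MGE, 6 in LGE and 6 in CGE, and 4 in CTX, against 65%, 64.2%, 64.6% and 63.8% of protein-coding genes. Their median was 266 covered bases in MGE (range 126 to 2322), 1246 in LGE (260 to 4720) and 1942 in CGE (1167 to 6191), and 717 in CTX (0 to 1975). Barhl2, a diencephalic homeobox gene, had 370 covered bases in MGE, 4720 in LGE and 6191 in CGE, and 661 in CTX. Gbx2, a regulator of the thalamus, had 145, 260, 2203 and 1162, and Sim1, a gene of the hypothalamus, had 503, 890, 1167 and 773. These 3 markers and Lhx9 had fewer covered bases in MGE than in CTX, whereas Lhx1, Lhx5 and the remaining markers had more. Rax, a gene of the hypothalamus and retina, had 162, 290, 1682 and 0. Foxb1, a gene of the hypothalamus, had 126, 1602, 1427 and 0, so that Foxb1 and Rax were at 0 in CTX. Tcf7l2, a thalamic regulator, ranked lower in CGE than in MGE and LGE, with percentiles of 96.3 in MGE, 96.9 in LGE and 92.1 in CGE, and 92.9 in CTX. CGE was the most covered region for 4 of the 6 markers, against 73.5% of protein-coding genes. The part of diencephalic tissue in the values of Lhx1, Lhx5 and Lhx9 was not tested.

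**Figure D4:**
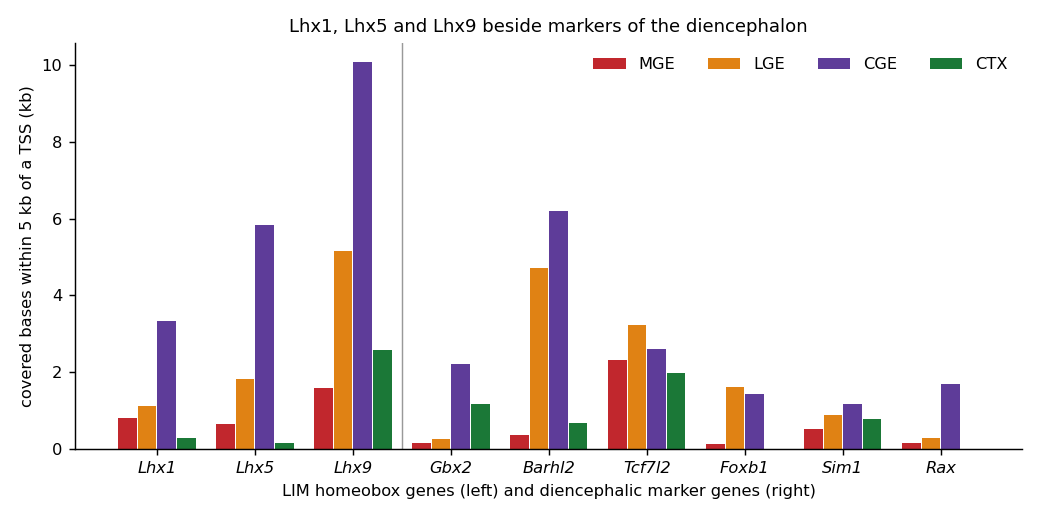
Bars give covered bases (kb) within 5 kb of a TSS in the 4 lists for Lhx1, Lhx5 and Lhx9 (left of the line) and for the 6 diencephalic markers (right), 1 value per list. CGE is the tallest bar for the 3 LIM genes and for Gbx2, Barhl2, Sim1 and Rax, and LGE for Tcf7l2 and Foxb1, and CGE is the most covered region of 73.5% of protein-coding genes.

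Lhx3, Lhx4 and Isl2, best known from motor neurons and, for Lhx3 and Lhx4, from the pituitary, had at most 1 peak in each list. Lhx3 covered 0 bases in MGE, 871 in LGE and 0 in CGE, and 217 in CTX. Both of its peaks were among the weakest of their lists, with −log10 q of 1.17 in LGE and 1.2 in CTX, at percentiles 0.0579 and 0.340 of all peaks, and neither remained at a −log10 q of at least 2. The LGE peak covered an internal TSS 1714 bp downstream and the start of the antisense transcript Gm27196, and the 5′ TSS of Lhx3 (minus strand, chr2:26200212-26208289) was under no peak. On this peak alone Lhx3 was at least 2 times as covered in LGE as in each other list, as were 0.631% of the protein-coding genes with a peak.

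Lhx4 was marked at an internal promoter only. It covered 798 bases in MGE, 1909 in LGE and 1862 in CGE, and 494 in CTX, at percentiles 54.1, 84.0, 80.0 and 42.0, with 1 peak per list. All 4 peaks lay around the TSS 9657 bp downstream of the 5′ end, which is also the RefSeq start, and none lay at the 5′-most TSS (minus strand, chr1:155698031-155751684). The CTX peak stopped 146 bp short of that internal TSS, and the others covered it.

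Isl2 was the most even of the family. It covered 362 bases in MGE, 703 in LGE and 767 in CGE, and 391 in CTX, at percentiles 39.4, 39.6, 39.1 and 40.3. A single peak per list lay 1933 to 2699 bp downstream of the 5′ end (plus strand, chr9:55538672-55546180), over 2 internal TSSs and a start of the antisense transcript Gm17226, and the 362 bases of the MGE peak were under all 4, 47.2% of the bases marked in any list. At the other genes the share in all 4 lists was at most 23.7%. The share was not computed over all protein-coding genes, and it cannot exceed what the list with the fewest bases at a gene covers. The printed Isl2 promoter was under a peak over all its 249 bases in every list. Although narrow, the Isl2 peak had a fold enrichment of 9.63 in MGE and 7.63 in CTX, above 94.2% and 80.4% of those lists, but 4.52 in LGE and 4.42 in CGE, above 30.3% and 30.5%. The MGE and CTX lists are those with the finer resolution, and the part of this in the fold was not tested.

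**Figure D5:**
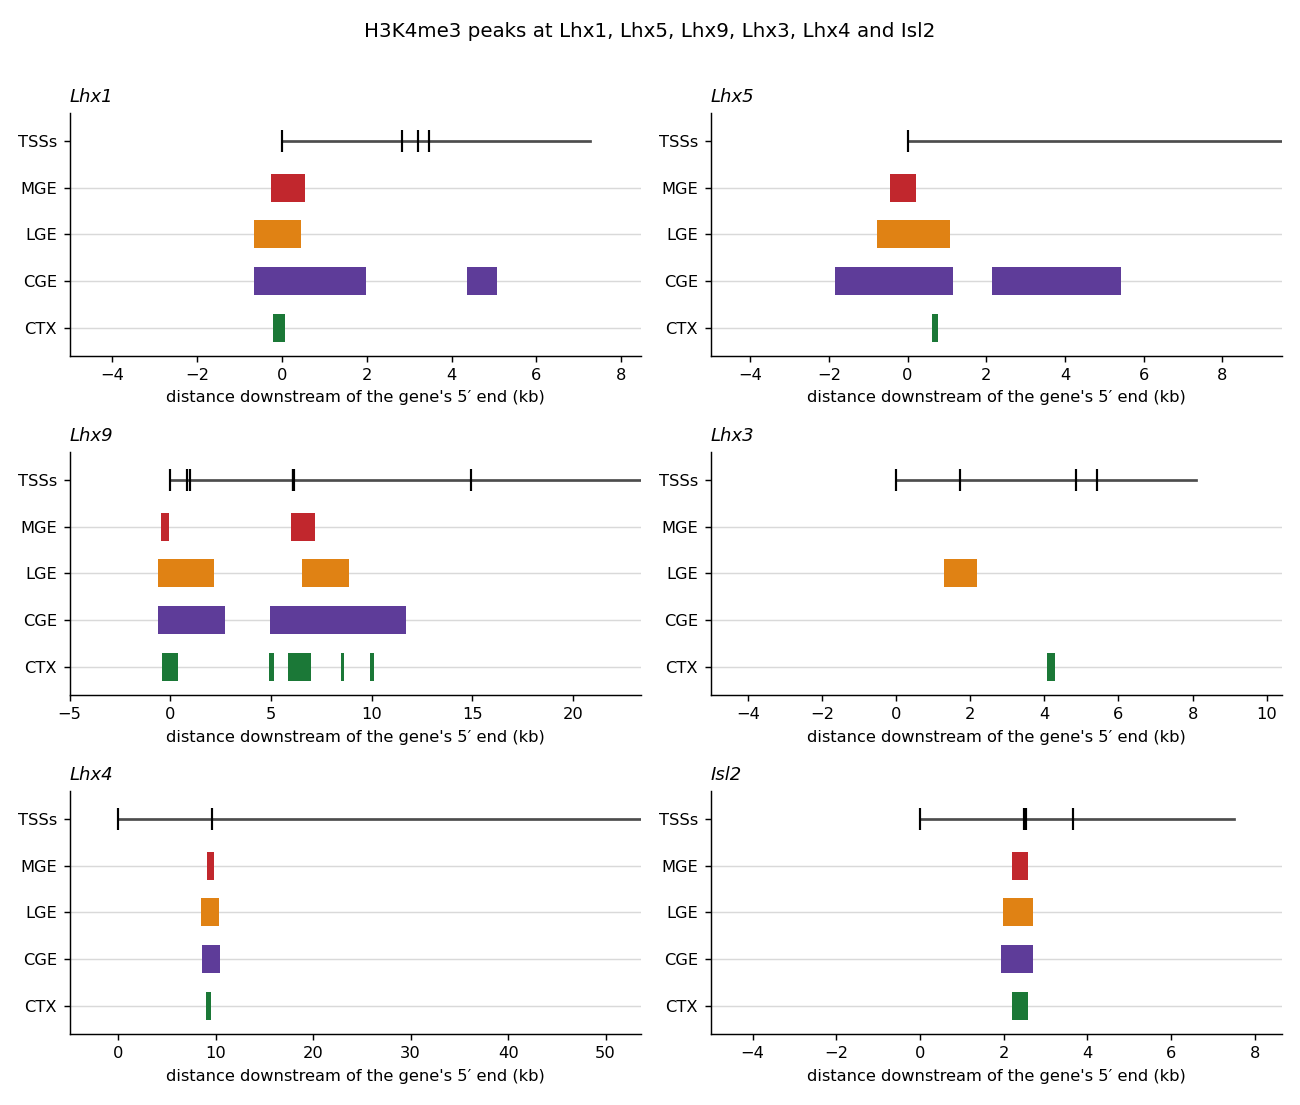
Coloured bars are the H3K4me3 peaks of each list at Lhx1, Lhx5, Lhx9, Lhx3, Lhx4 and Isl2, drawn to scale against the distance downstream of the gene's 5′ end (kb), with the gene and its annotated TSSs (ticks) on top. The CGE domains of Lhx1, Lhx5 and Lhx9 are the widest, the peaks of Lhx4 lie 8477 to 10406 bp inside the gene, and Isl2 has 1 peak at the same place in all 4 lists.

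Most peaks of the 10 genes had a low fold enrichment, with exceptions at Lhx1, Isl1 and Isl2 in MGE and at Lhx6 and Isl2 in CTX. Of their peaks, 16 of 19 in MGE, 16 of 16 in LGE and 18 of 18 in CGE, and 17 of 19 in CTX had a fold below the median of the list. The median fold percentile was 25.5 in MGE, 8.33 in LGE and 4.69 in CGE, and 6.81 in CTX. By −log10 q the median percentile was 48.0 in MGE, 22.1 in LGE and 23.6 in CGE, and 36.8 in CTX. Both ranks are against all peaks of the list, and peaks of like width were not compared. The peaks were nonetheless wide in 3 of the lists, with a median width of 773 bp against 563 bp over all peaks in MGE, 1456 against 1168 bp in LGE and 1921 against 1240 bp in CGE, and narrower in CTX, at 535 against 701 bp. The peaks of 1 gene share a locus, so these counts are not of independent units.

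The cofactors of LIM proteins were marked in every list, at widely different percentiles. All 5 genes of the Ldb and Ssbp families, which form the scaffold of LIM complexes, had peaks in all 4 lists, and so did the 4 Lmo genes and Rlim, a ubiquitin ligase that acts on these cofactors. The same held for 61.3% of protein-coding genes. The median percentile of the 5 scaffold genes was 97.2 in MGE, 96.4 in LGE and 95.2 in CGE, and 97.7 in CTX, and that of the Lmo genes and Rlim was 96.9, 96.6, 98.6 and 95.2. Ldb1 itself covered 3870 bases in MGE, 4279 in LGE and 4334 in CGE, and 3434 in CTX. The paralogue Ldb2 was narrower, with 414, 1476, 1818 and 512 bases at percentiles 40.3, 70.8, 78.9 and 42.4. Ssbp2, a single-stranded DNA-binding partner of Ldb1, likewise stood at 45.6 in MGE and 51.8 in CTX but at 88.6 in LGE and 76.0 in CGE. The 2 other LIM homeodomain genes, Lmx1a and Lmx1b, which act in the roof plate and in midbrain neurons, differed from each other, as Lmx1a covered most in CTX (1503 bases, percentile 84.0) and Lmx1b had no peak there.

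The genes with the most similar percentiles in the 4 lists were found among the 14900 protein-coding genes with a peak in at least 1 list, by Euclidean distance. For Lhx6 they were Six3, a regulator of the anterior forebrain (distance 3.41 percentile points), Dlx6, a homeobox gene of the ganglionic eminences (3.71), and Myt1l, a neuronal zinc finger factor (5.89). For Lhx8 they were Gsx1, a homeobox gene of the ventral forebrain (6.64), Shh, the ventral signalling ligand (14.7), and AW551984 (20.03). All 3 had no peak in CTX, which the choice by distance fixed in advance. Lhx8 stood at percentile 0 in CTX, whereas Lhx5, with only 159 covered bases, stood at 37.0 there. For Isl1 they were Wnt6, a Wnt ligand (7.29), Nup93, a nuclear pore protein (7.996), and Tspyl4 (8.58). For Lhx2, which stood near the top of every list, they included Tnrc18 (0.282) and Auts2 (0.297). The measure uses 4 values per gene, and all 4 come from the lists described above.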

How the data were processed

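Alignment to GRCm38/mm10 was done by the authors with Bowtie2, after which they dropped blacklisted regions, removed PCR duplicates (Picard), merged the replicates of each region and called broad peaks with MACS. The deposited lists, 1 per region, give for each peak its position, a fold enrichment (a ratio, merged signal over the caller's own background estimate) and a −log10 q. Both deposited values depend on depth, which is unknown per peak. They were therefore ranked or filtered within a list, and the raw values printed for single peaks are not comparable between lists. All 12 libraries could be mapped to a region.

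Peaks sharing at least 1 bp with the union of 5 kb on either side of every GENCODE M21 TSS of a gene were counted, and bases under them summed, for all 55450 genes. The percentile is the percent of protein-coding genes with fewer covered bases in the same list. Calls used at least 3000 covered bases, or 2 times more or fewer bases than each other list. Positions are 1-based. Promoters came from RefSeq and the interior Lhx6 sequence from its GRCm38.p6 genome. Python 3.11.15, numpy 2.4.6, pandas 2.3.3, scipy 1.17.1 and matplotlib 3.10.9 were used, and the interval arithmetic was tested on simulated data. The named genes were the 10 members, genes of the lists for cofactors, lineage, region and tissue markers, genes starting inside a member's window, and the 3 genes of most similar percentiles for Lhx2, Lhx6, Lhx8 and Isl1, of which 1 is not reported here. Members and lists were chosen with earlier results of these data known. Alternatives changed the window, the TSSs, the peaks entering, their joining, the overlap and the reference genes. Other marks, accessibility and expression were not analysed here.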

Additional observations from a re-analysis of the deposited data

How the results depend on the processing

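No paired analysis was possible because peaks had been called on the merged reads of both replicates. With 1 list per region, the values carry no replicate error, and leaving out a replicate was not possible. Of 112 recomputed counts of genes, 94 stayed within 1.5 times the reported count and 18 did not. The number with at least 3000 covered bases became 1 in MGE with 2 kb windows, basic transcripts, a −log10 q of at least 2 or equal list sizes, 0 in MGE and 0 in LGE with the 5′ end only, and 2 in CTX with 10 kb windows or peaks under 1 kb apart joined. The number most covered in MGE became 1 (Lhx8) with 2 kb windows and with either joining. The number most covered in LGE became 1 with 10 kb windows, the 5′ end only or a −log10 q of at least 2. The number most covered in CTX became 1 with 10 kb windows, the 5′ end only and either joining. One of the joinings, which also removed peaks under 250 bp, was chosen after seeing the data. Equal list sizes left 6 of the 10 genes marked in CTX. Covered bases at single genes were the same in 278 of 360 recomputed values and moved in 82, and 256 of 440 percentiles moved beyond their Wilson 95% interval. That interval treats the 21951 protein-coding genes as independent draws. It holds no error between replicates and serves here only as a limit for a change. The median percentile of the 10 genes stayed highest in CGE and lowest in CTX under each of these settings. Depth limits what a missing peak shows, since neither the reads behind a peak nor a floor for its absence could be computed.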

Other observations

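The genes around Lhx6 and Lhx8 in their lineages were marked to different extents. Of the 8 MGE interneuron genes chosen for comparison, 7 had a peak in MGE, 7 in LGE and 8 in CGE, and 6 in CTX, with median percentiles of 95.0, 95.4, 97.5 and 91.3. A peak was found for 65%, 64.2%, 64.6% and 63.8% of protein-coding genes in these lists. Sst, the neuropeptide of a main class of MGE-derived interneurons, had a peak in CGE only, of 638 covered bases. Ackr3, a chemokine receptor of migrating interneurons, covered 1824 bases in MGE, 2373 in LGE and 3582 in CGE, and 937 in CTX.

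Of the 6 cholinergic genes, 3 had a peak in MGE, 6 in LGE and 5 in CGE, and 5 in CTX, with median percentiles of 18.0, 51.8, 88.4 and 37.5. Between 63.8% and 65% of protein-coding genes had a peak in each list. Chat, the enzyme that makes acetylcholine, and Slc18a3, its vesicular transporter, share a locus and had the same values, with 0 covered bases in MGE, 2188 in LGE and 2367 in CGE, and 125 in CTX. In MGE, the list in which Lhx8 had its highest percentile, neither had a peak. Gbx1, a homeobox gene of the family of Gbx2, covered 457 bases in MGE, 1217 in LGE and 2463 in CGE, and 264 in CTX. Gbx2, also used above as a diencephalic marker, was counted among the 6, and so were both Chat and Slc18a3. The 6 values behind each median are thus not independent.

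Among 7 markers of blood, vessel and meninges, 4 had a peak in MGE, 2 in LGE and 3 in CGE, and 3 in CTX, with the highest value of each list at Kdr (1067 to 1294 bases), and Cx3cr1, Csf1r and Hbb-bt had none in any list. All 9 region markers had a peak in MGE, LGE and CGE and 8 in CTX, with median percentiles of 92.9, 97.2, 97.8 and 77.7. The share of protein-coding genes with a peak, for both sets of markers, was between 63.8% and 65% in each list.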
